A study of Mus musculus with 9 samples.

Results

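Chemokine receptors are G protein-coupled receptors on the surface of leukocytes that sense secreted chemokines and steer cell movement. On macrophages and their monocyte precursors, Ccr2 is known for recruitment from blood to inflamed tissue, and Cx3cr1, the receptor for the membrane-anchored chemokine fractalkine, marks monocyte subsets and many tissue macrophages. The transcripts of 8 receptor genes, Cx3cr1, Ccr1, Ccr2, Ccr3, Ccr7, Ccrl2, Cxcr4 and Cmklr1, were followed here out of 55401 genes in the count table. They were taken by symbol, and all 8 were found. Ccrl2 and Cmklr1 are relatives rather than conventional chemokine receptors: both bind chemerin, a chemoattractant protein that is not a chemokine, and Ccrl2 does not signal through G proteins.

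The libraries hold poly(A) RNA of primary peritoneal macrophages elicited in mice with thioglycollate, an irritant that draws cells into the peritoneal cavity. The cells adhered for a short time in DMEM medium containing 10% fetal bovine serum before RNA was taken. The groups, with 3 libraries each, were SE (labelled Stat6S807E/S807E), SA (Stat6S807A/S807A) and WT. STAT6 carries the interleukin-4 and interleukin-13 signal to the nucleus. The labels name S807E and S807A: glutamate (SE) places a negative charge where serine can be phosphorylated, and alanine (SA) cannot be phosphorylated. The series concerns STAT6 phosphorylated at this serine and macrophage senescence, and each mutant was set against WT and SE against SA. The labels give no age or sex for the mice.

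Library totals ran from 17286617 to 24618608 counts, so that 3 counts, the limit used for a gene at 0, correspond to 0.122 to 0.174 CPM (counts scaled to library size with TMM factors). Such limits cover counting error only. Stat6 itself averaged 296 ± 14.6 CPM in SE, 198 ± 2.92 in SA and 195 ± 7.53 in WT (SD, n = 3 each), and was 1.51-fold higher in SE than WT (edgeR adjusted p = 6.27e-06). A codon change is not read by a gene count, so this level does not check the genotype labels. The cells carried macrophage transcripts. The summed level of 6 macrophage core markers (Adgre1, Csf1r, Itgam, Cd68, Mertk and Fcgr1) was 8540 to 9313 CPM in SE, 8501 to 8800 CPM in SA and 8672 to 9950 CPM in WT. Of these markers, Mertk and Fcgr1 fell in SE relative to WT (edgeR adjusted p = 0.0195 and 0.0157), and Fcgr1 also relative to SA (edgeR adjusted p = 6.44e-05). At an unadjusted edgeR p under 0.05 there were 4 of the 6 in SE against WT, all lower (Adgre1, Itgam, Mertk and Fcgr1). There were 2 in SA against WT and 2 in SE against SA. DESeq2 called 3 in SE against WT, 1 in SA against WT and 1 in SE against SA. Ly6c2, a monocyte gene, lay at 0 to 4 counts per library. In bulk RNA of this kind, fewer cells of a type and less RNA per cell cannot be told apart.

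Cx3cr1 separated all 3 genotypes. Its level was lowest in SE and highest in SA, with WT between them. The SE libraries had 1.52, 2.27 and 2.04 CPM, the SA libraries 10.1, 6.57 and 8.33 CPM, and the WT libraries 5.03, 4.23 and 4.19 CPM. No library of any genotype overlapped those of another. In counts these were 31 to 39 reads in SE, 129 to 229 in SA and 72 to 126 in WT, so counting error is a visible part of the spread.

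Relative to WT, Cx3cr1 was 2.33-fold lower in SE, a log2 change of -1.22 ± 0.21 (standard error, edgeR adjusted p = 0.00167). In SA it was 1.85-fold higher than in WT, a log2 change of 0.89 ± 0.17 (edgeR adjusted p = 0.00318). Between the mutants the level was 4.33-fold lower in SE than in SA (95% interval of the log2 change -2.52 to -1.71, edgeR adjusted p = 2.12e-06). The 3 calls held under each of the 17 alternatives run. The gene (ENSMUSG00000052336) lies on the minus strand of mm10 chromosome 9, 119901616 to 120069879. Its exons share 78 bases with those of the antisense gene Gm33858, which had 0 to 2 counts in every library. The strand setting of the counting is not given in the sources used here.

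**Figure D1:**
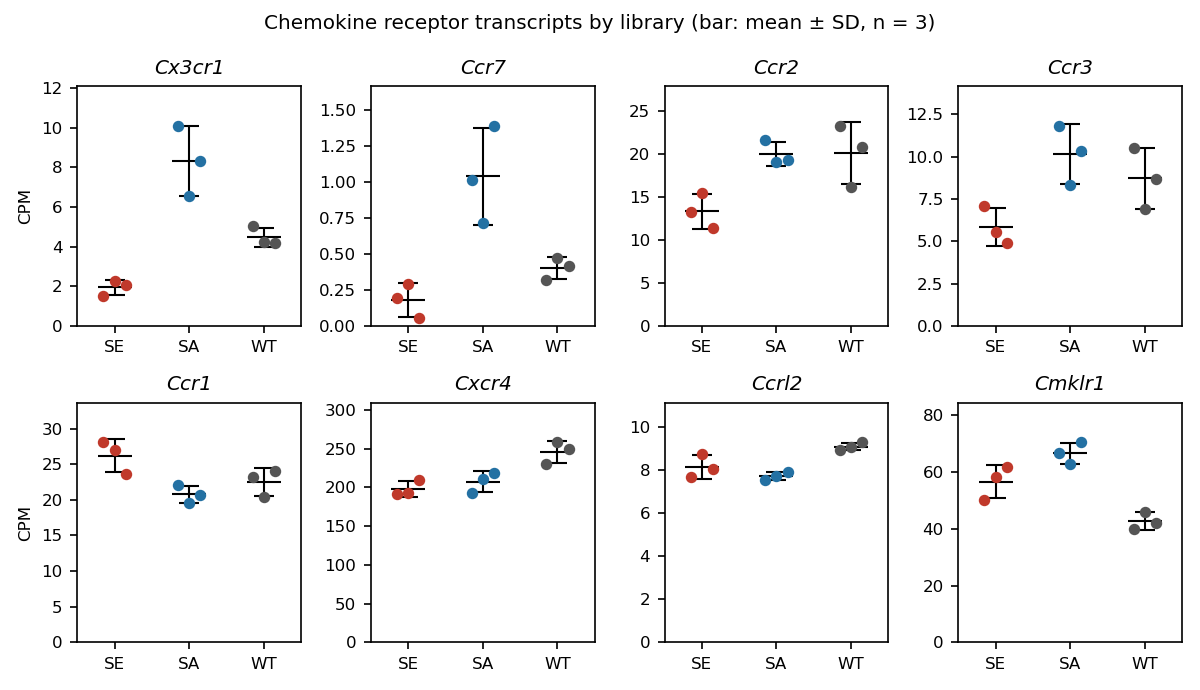
Level (CPM, axis from 0) of each receptor in the SE, SA and WT libraries; points are libraries, and bars are the mean ± SD (n = 3). Cx3cr1 lies at 1.52 to 2.27 CPM in SE, 6.57 to 10.1 CPM in SA and 4.19 to 5.03 CPM in WT, while Cmklr1 lies above WT in both mutants and Cxcr4 below it.

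Of the 8 members, 7 passed the filter on low counts in every genotype. Ccr7 passed only through its SA libraries. Among the 7, SE against WT gave 1 member higher and 3 lower, where 5.04% of all 13501 tested genes were called (2.35% higher and 2.69% lower). SA against WT gave 2 higher and 1 lower, where 4.07% of tested genes were called (1.97% higher and 2.1% lower). SE against SA gave 1 higher and 3 lower, where 10.2% were called (4.77% higher and 5.42% lower). Libraries that did not overlap were also common among all genes. In SE against WT 1 of the 7 lay higher and 4 lower without overlap, beside 20.5% of tested genes (10.1% higher and 10.4% lower). In SA against WT 2 lay higher and 2 lower without overlap, beside 19.3% (9.6% higher and 9.71% lower). In SE against SA 1 lay higher and 4 lower without overlap, beside 28.3% (14.2% higher and 14.1% lower). The members were chosen with earlier results of these data known, so these shares describe them and test nothing about the family. The comparisons with WT share the WT libraries, and SE and SA are each used in a pair of comparisons.

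**Figure D2:**
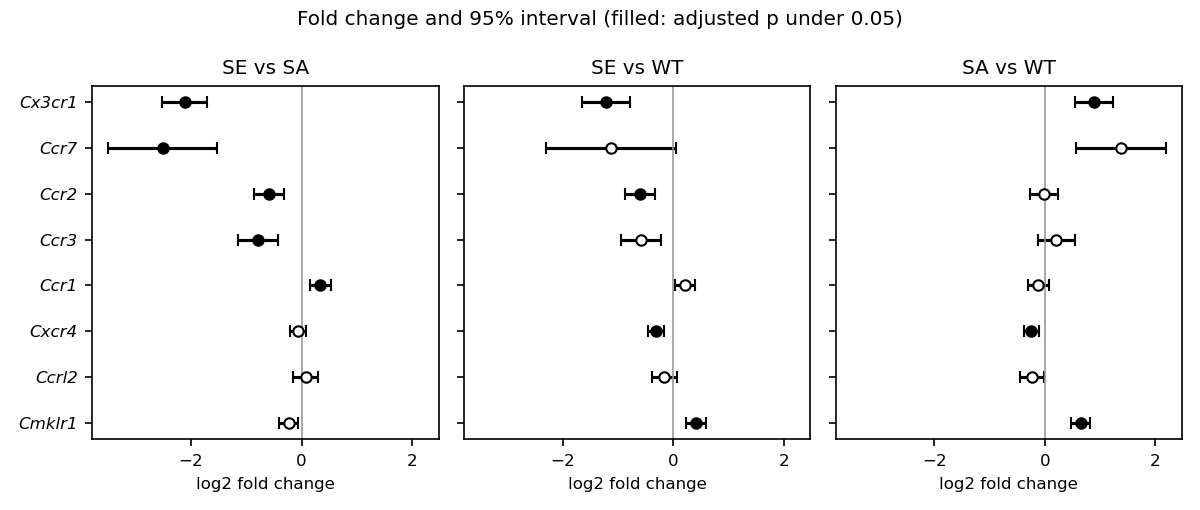
Log2 fold change of each receptor in SE against SA, SE against WT and SA against WT; points are edgeR estimates, bars are 95% intervals, and filled points have an adjusted p under 0.05. Cx3cr1 is filled in each panel, at -2.11, -1.22 and 0.89, and Ccrl2 in none.

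Ccr2 was lower in SE and stood near WT in SA. Ccr3 was called lower in SE against SA but not against WT. Ccr2, the receptor for Ccl2 and related chemokines, had 13.2, 15.5 and 11.4 CPM in the SE libraries, 21.6, 19.0 and 19.3 CPM in the SA libraries, and 23.3, 16.1 and 20.9 CPM in the WT libraries. Every SE library lay below every SA and WT library, and SA and WT overlapped. Ccr2 was 1.52-fold lower in SE than in WT (adjusted p = 0.00951 in edgeR) and 1.5-fold lower in SE than in SA (adjusted p = 0.00692 in edgeR). The SE against WT call ended without WT1, WT3 or SE1 (edgeR adjusted p = 0.0531, 0.0619 and 0.062). The SA against WT difference had a 95% interval of -0.27 to 0.24 on the log2 scale (edgeR adjusted p = 0.984), and its sign changed between alternatives.

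Ccr3 binds eotaxins and is best known as the chemotactic receptor of eosinophils. It had 7.06, 5.53 and 4.92 CPM in the SE libraries, 11.8, 8.31 and 10.3 CPM in the SA libraries, and 10.5, 6.93 and 8.70 CPM in the WT libraries. The highest SE library and the lowest WT library overlapped narrowly, and SE lay below SA without overlap. Ccr3 was 1.74-fold lower in SE than in SA (adjusted p = 0.00596 in edgeR). Against WT the SE level stood at a log2 difference of -0.59 ± 0.17, which missed the threshold (edgeR adjusted p = 0.0602). That comparison passed with DESeq2 (adjusted p = 0.0298), with no filter (edgeR adjusted p = 0.00129), with the replicate number in the fit (edgeR adjusted p = 0.0155), without WT2 (edgeR adjusted p = 0.0112), and without WT2 and SE3 together (edgeR adjusted p = 0.0162).

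The summed level of 6 eosinophil markers was 16.2 to 20.9 CPM in SE, 13.7 to 14.9 CPM in SA and 17.7 to 19.8 CPM in WT. Nearly all of it was Siglecf, which some macrophages also express. Siglecf averaged 18.0 ± 2.55 CPM in SE, 14.4 ± 0.678 CPM in SA and 18.6 ± 1.13 CPM in WT (SD, n = 3 each), and was the 1 marker of the list that could be tested. Of the granule protein genes, Epx lay at 0 counts in 7 of 9 libraries and Prg2 at 0 in 6 of 9, and Ear1 and Ear6 were at 0 in every library. The part of eosinophils in the Ccr3 values was not tested.

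Ccr7 responds to Ccl19 and Ccl21 and guides mature dendritic cells to lymph nodes. It was rare in all genotypes, with 4, 5 and 1 counts in the SE libraries, 23, 14 and 27 counts in the SA libraries, and 8, 8 and 9 counts in the WT libraries. In CPM these were 0.0524 to 0.291 in SE, 0.713 to 1.39 in SA and 0.32 to 0.47 in WT, so its order across genotypes was that of Cx3cr1. Ccr7 was 5.7-fold lower in SE than in SA (95% interval of the log2 change -3.50 to -1.52, edgeR adjusted p = 0.00209). The log2 difference was -1.13 ± 0.56 for SE against WT (edgeR adjusted p = 0.294) and 1.38 ± 0.39 for SA against WT (edgeR adjusted p = 0.057). Since the gene passed the filter through SA alone, it had to differ there, and its values with SA are a description.

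Among 7 dendritic cell markers, Fscn1, which bundles actin in mature dendritic cells, had 3, 10 and 4 counts in SE, 19 to 30 counts in SA and 0 to 14 counts in WT. Fscn1 exceeded the filter limit in 3 SA libraries but in 1 SE and 1 WT library, so, as with Ccr7, its values with SA are a description. The chemokine gene Ccl22 was lower in SE than in SA (adjusted p = 0.0168 in edgeR). Ccl17, another chemokine of the list, stood the other way, at 1.73 ± 0.296 CPM in SE, 1.05 ± 0.476 CPM in SA and 1.71 ± 0.202 CPM in WT (edgeR adjusted p = 0.125 for SE vs SA). Against WT, edgeR called 0 of the 5 tested markers in either mutant; at an unadjusted p under 0.05 there were 0 in SE and 2 in SA (Fscn1 at a log2 difference of 1.87 and Ccl17 at -0.70), and DESeq2 called 0 in SE and 1 in SA. The list summed to 26.6 to 27.6 CPM in SE, 32.1 to 34.4 CPM in SA and 28.5 to 31.6 CPM in WT, and Flt3 had 0 to 5 counts per library. The part of such cells in the Ccr7 values was not tested.

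Ccr1 was the 1 member called higher in SE than in SA. This receptor for Ccl3, Ccl5 and other inflammatory chemokines had 28.0, 26.9 and 23.6 CPM in the SE libraries, 22, 19.6 and 20.6 CPM in the SA libraries, and 23.1, 20.4 and 24.1 CPM in the WT libraries. SE lay above SA without overlap, and WT overlapped both. The difference was 1.26-fold (log2 0.33 ± 0.09, edgeR adjusted p = 0.025), and it ended when library totals alone set the scale (edgeR adjusted p = 0.0733), without SA2, SA3, SE1 or SE2 (edgeR adjusted p = 0.0716 to 0.139), and without WT1 and SE2 together (edgeR adjusted p = 0.0751). Against WT, Ccr1 passed in neither mutant (edgeR adjusted p = 0.202 for SE and 0.669 for SA).

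Cxcr4, the receptor for Cxcl12 that retains leukocytes in bone marrow, was the most abundant member and was lower in both mutants. It had 191, 193 and 210 CPM in the SE libraries, 192, 210 and 219 CPM in the SA libraries, and 230, 258 and 250 CPM in the WT libraries. All 6 mutant libraries lay below all 3 WT libraries. The fall was 1.24-fold in SE (log2 -0.31 ± 0.07, edgeR adjusted p = 0.00848) and 1.19-fold in SA (log2 -0.25 ± 0.07, edgeR adjusted p = 0.0416). The SE call ended without WT3 or SE1 (edgeR adjusted p = 0.0597 and 0.062). The SA call ended without WT2, WT3, SE1, SE2 or any 1 of the SA libraries (edgeR adjusted p = 0.0507 to 0.282). SE and SA differed by -0.07 on the log2 scale (95% interval -0.21 to 0.07, edgeR adjusted p = 0.608).

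Cmklr1, the signalling receptor for chemerin, moved the other way and was higher in both mutants. It had 50.2, 58.2 and 61.7 CPM in the SE libraries, 66.6, 63.0 and 70.5 CPM in the SA libraries, and 40.0, 46.0 and 42.2 CPM in the WT libraries. No mutant library overlapped WT, and no SE library reached the lowest SA library. The rise over WT was 1.33-fold in SE (log2 0.41 ± 0.08, edgeR adjusted p = 0.00666) and 1.56-fold in SA (log2 0.65 ± 0.08, edgeR adjusted p = 8.8e-05). The SE call ended with WT1 and SE2 left out together (edgeR adjusted p = 0.0808). SE stood at -0.23 ± 0.08 on the log2 scale relative to SA (edgeR adjusted p = 0.0784), a difference that passed under 6 of 17 alternatives.

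Ccrl2, which holds chemerin at the cell surface and presents it to Cmklr1-bearing cells, varied least. Its libraries lay at 7.65 to 8.73 CPM in SE, 7.54 to 7.91 CPM in SA and 8.91 to 9.26 CPM in WT. Both mutants lay below WT without overlap, but by little. The log2 differences from WT were -0.16 ± 0.10 in SE (95% interval -0.38 to 0.06, edgeR adjusted p = 0.454) and -0.23 ± 0.10 in SA (95% interval -0.45 to -0.02, edgeR adjusted p = 0.316).

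The window before the start site was read for Cxcr4 and Cmklr1, the members that passed against WT in the same direction in both mutants. The 250 bases upstream of each start site, from RefSeq on GRCm38.p6, are given 5′ to 3′ on the minus strand of the gene. Capitals mark GAGGAA, the core of sites bound by the macrophage factor PU.1. The Cmklr1 window lies inside the GENCODE M21 span of the gene (113612354 to 113650426). It precedes the RefSeq start site used here, not the first base of that span.
Cxcr4, chr1:128592300-128592549: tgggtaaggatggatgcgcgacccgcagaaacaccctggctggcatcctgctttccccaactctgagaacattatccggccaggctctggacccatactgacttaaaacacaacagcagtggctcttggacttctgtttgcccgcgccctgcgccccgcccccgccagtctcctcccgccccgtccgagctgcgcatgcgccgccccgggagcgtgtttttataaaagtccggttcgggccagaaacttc
Cmklr1, chr5:113643604-113643853: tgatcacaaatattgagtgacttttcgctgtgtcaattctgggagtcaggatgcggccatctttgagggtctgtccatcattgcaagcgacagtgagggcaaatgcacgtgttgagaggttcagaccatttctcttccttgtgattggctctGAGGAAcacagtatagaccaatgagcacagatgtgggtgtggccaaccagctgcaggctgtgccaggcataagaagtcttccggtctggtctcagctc

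The motif searched for STAT6 was TTCNNNNGAA, and that for other STAT proteins was TTCNNNGAA, each on both strands of the 250 bases before a start site. RefSeq gives 9 such windows for 7 members, 3 of them overlapping windows of Ccrl2. By GENCODE M21 all 250 bases of the Cx3cr1 window and 233 bases of the Ccr2 window lie in an exon. In the Ccrl2 windows 1, 139 and 114 bases do. Windows that overlap an exon, and that of Cmklr1 inside its gene span, need not be upstream of the transcript. The letters TTCNNNNGAA were in 0 of the 9, against 5.85% of 32851 windows of the same length. TTCNNNGAA was also in 0 of 9, against 7.02% of all windows. GAGGAA was in 3 of 9, against 23.3%, beginning 98 bases before the RefSeq start site in Cmklr1, 129 in Ccr1 and 181 in Ccr3. No match says only that these letters are not in this window. Ccr7 has no entry in the table.

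Per length of exon, Cxcr4 made up most of the transcripts of the 8 receptors. Of their summed TPM (counts per kb of exon, scaled to the same total in every library), Cxcr4 held 76.7% ± 1.12 in SE, 74.9% ± 1.96 in SA and 81.5% ± 1.21 in WT (SD, n = 3 each). Cmklr1 came next with 11.7% ± 0.831 in SE, 12.8% ± 0.607 in SA and 7.51% ± 0.28 in WT. Ccr1 held 6.5% ± 0.828 in SE, 4.81% ± 0.45 in SA and 4.78% ± 0.532 in WT. Cx3cr1 held 0.302% ± 0.0562 in SE, 1.22% ± 0.292 in SA and 0.599% ± 0.0916 in WT, so its large fold differences concerned a small share of this sum.

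**Figure D3:**
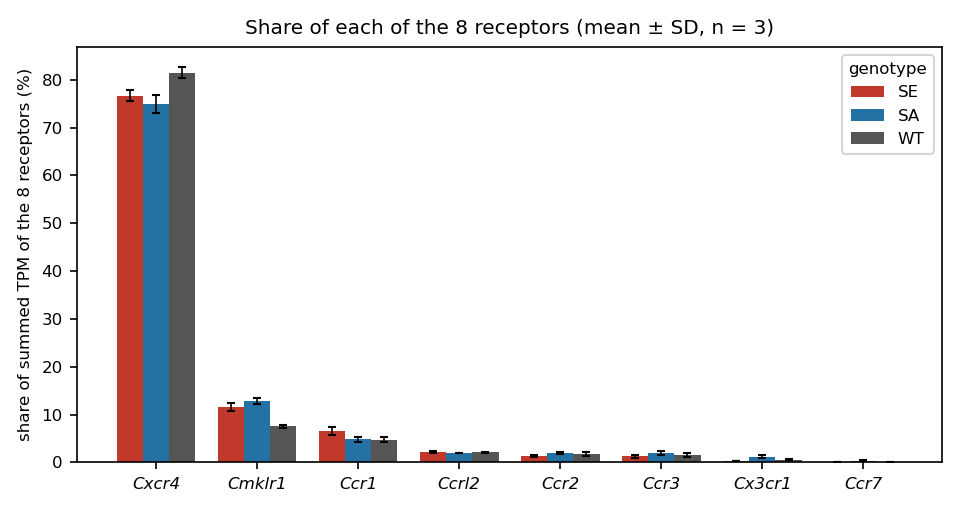
Share (%) of the summed TPM of the 8 receptors held by each of them; bars are the mean and lines the SD (n = 3) in SE, SA and WT. Cxcr4 holds 76.7% in SE, 74.9% in SA and 81.5% in WT, and Cx3cr1 0.302% in SE, 1.22% in SA and 0.599% in WT.

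In WT macrophages the order of the members by TPM was Cxcr4 (455 ± 14.1), Cmklr1 (41.9 ± 1.61), Ccr1 (26.7 ± 2.97), Ccrl2 (11.7 ± 0.394), Ccr2 (9.99 ± 2.1), Ccr3 (8.96 ± 2.12), Cx3cr1 (3.34 ± 0.449) and Ccr7 (0.68 ± 0.109). Neighbours from Ccrl2 to Ccr3 lay within their spread of each other. The order of the first 3 was the same in SE and SA. In SE, Cx3cr1 averaged 1.40 ± 0.284 TPM beside 6.42 ± 1.09 TPM of Ccr2, and in SA 6.30 ± 1.36 TPM beside 10.1 ± 0.795 TPM. The quotient of Cx3cr1 TPM over Ccr2 TPM was 0.173, 0.22 and 0.268 in the SE libraries, 0.7, 0.519 and 0.647 in the SA libraries, and 0.325, 0.393 and 0.301 in the WT libraries. It did not overlap between genotypes, so Cx3cr1 and Ccr2 did not fall in equal proportion in SE.

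Ccrl2, Cx3cr1, Ccr1, Ccr3 and Ccr2 all lie on chromosome 9. Ccr1 (123962124 to 123968692, minus strand), Ccr3 (124021972 to 124031689, plus strand) and Ccr2 (124101950 to 124113557, plus strand) lie with Ccr1l1 within 151.4 kb of each other on mm10. Cx3cr1 ends 3.89 Mb before Ccr1, and Ccrl2 (111054486 to 111057519) ends 8.84 Mb before Cx3cr1. Cxcr4 (128588199 to 128592293) lies on chromosome 1, Cmklr1 (113612354 to 113650426) on chromosome 5 and Ccr7 (99144196 to 99155077) on chromosome 11, each on the minus strand. Ccr3 and Ccr2 had like values and Ccr1 others. In SE against WT, Ccr2 fell, Ccr3 stood at -0.59 ± 0.17 on the log2 scale and Ccr1 at 0.21 ± 0.09. In SE against SA, Ccr1 rose while Ccr2 and Ccr3 fell. Receptors of this cluster are close paralogs, and how reads that fit more than 1 gene were counted is not given in the sources used here, so the division of reads among them is uncertain.

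**Figure D4:**
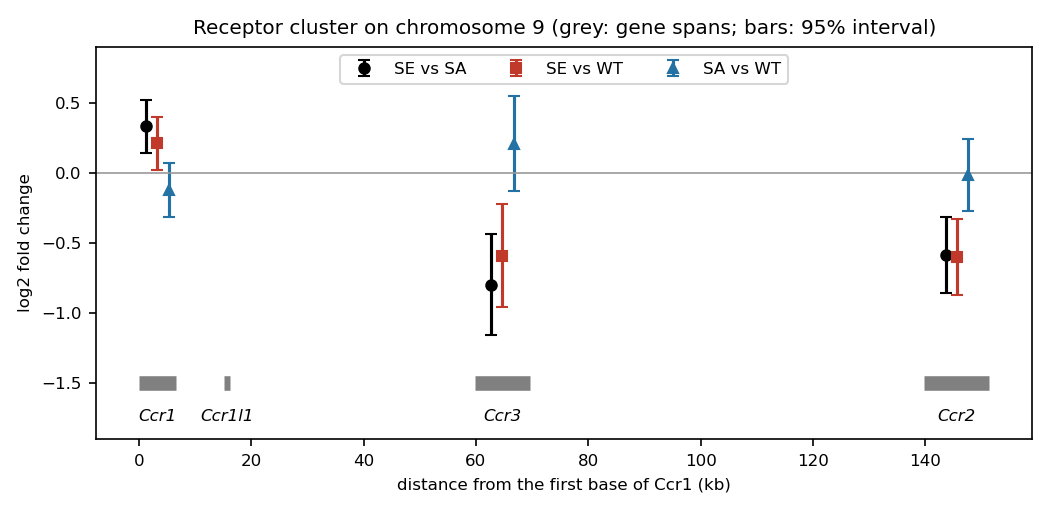
Log2 fold change (points, with 95% intervals) of the tested receptor genes of the chromosome 9 cluster against distance in kb from the first base of Ccr1; grey bars are gene spans, and Ccr1l1 was too low to test. In SE against SA, Ccr1 is higher (0.33) and Ccr3 and Ccr2 are lower (-0.80 and -0.59).

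Across the 9 libraries, Ccr2 and Ccr3 varied together (Pearson r = 0.884 on log2 CPM), as did Cx3cr1 and Ccr7 (r = 0.882), Cx3cr1 and Ccr3 (r = 0.83) and Cx3cr1 and Ccr2 (r = 0.81). Cx3cr1 and Ccr1 ran opposite (r = -0.778), and so did Ccrl2 and Cmklr1 (r = -0.758). These values mix differences between genotypes with those within them, and the points share library depth and preparation. Within genotypes, WT2 was the lowest WT library and SE3 the lowest SE library for each of Ccr1, Ccr2 and Ccr3, and both were the highest of their genotype for Cxcr4 and Cmklr1. SA2 was the lowest SA library for 6 of the 8 members. These libraries carried no other label than the rest, and what sets them apart was not tested.

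The genes whose log2 CPM ran most like that of Cx3cr1 over the 9 libraries, among 9103 genes of at least 5 CPM, were Sipa1l1, Nfkbiz, Rassf4, Epb41 and Epb41l2 (r = 0.984, 0.974, 0.97, 0.97 and 0.97). Rassf4 averaged 351 ± 19.6 CPM in SE, 568 ± 4.43 CPM in SA and 452 ± 7.41 CPM in WT, without overlap between genotypes. Nfkbiz, an inhibitor-of-NF-kB family protein of the nucleus, averaged 6.54 ± 0.565 CPM in SE, 12.1 ± 0.547 CPM in SA and 9.51 ± 0.581 CPM in WT. These genes were chosen for this pattern, so their levels are a description. Their differences were smaller than those of Cx3cr1: in SE against SA the log2 value was -0.46 for Sipa1l1, -0.89 for Nfkbiz, -0.70 for Rassf4, -0.48 for Epb41 and -0.20 for Epb41l2. For Cmklr1 the closest genes were Fn1, fibronectin (r = 0.978), and Jarid2 (r = 0.968). For Cxcr4 they were Mylip (r = 0.978) and Ephx1 (r = 0.975). The closest to Ccr2 were St8sia4 and Mtmr6 (r = 0.981 and 0.97), to Ccr3 Vps36 and Slc28a2 (r = 0.971 and 0.968), to Ccr1 Rer1 and Ccdc86 (r = 0.978 and 0.955), to Ccr7 Stim2 and Nrip1 (r = 0.959 and 0.958), and to Ccrl2 Dirc2 and Tex2 (r = 0.973 and 0.952). All were picked as the highest r among 9103 genes over only 9 libraries, so these r values too are a description. Mtmr6, Vps36, Slc28a2, Rer1, Stim2, Dirc2 and Tex2 were called in no comparison, while the other partners of these members were called in some.

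Most ligands of these receptors were scarce in the same libraries. Of 15 ligand genes 9 were tested, and Ccl11, Ccl19 and Ccl21a were at 0 counts in every library. Rarres2, which encodes chemerin, had 0 to 3 counts per library, and Cxcl12 had 0 to 5 counts in SE, 9 to 19 in SA and 3 to 6 in WT. Per length, Ccl9 (1107 ± 155 TPM in SE, 1187 ± 70.3 in SA and 1048 ± 123 in WT), Mif (455 ± 35.5, 322 ± 53.8 and 344 ± 60.2 TPM) and Ccl6 (235 ± 51.1, 165 ± 6.68 and 228 ± 24.0 TPM) were the most abundant. Ccl9 and Ccl6 are ligands of Ccr1, and Mif is a cytokine that also binds Cxcr4.

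Beside the ligand counts that follow, 5.04% of all tested genes were called in SE against WT, 4.07% in SA against WT and 10.2% in SE against SA. These shares describe the list and test nothing about it. In SE against WT 1 of the 9 tested ligands rose and 0 fell, with a median log2 change of 0.13 against -0.003 over all tested genes. The riser was Ccl24, an eotaxin and ligand of Ccr3, at 1.88 ± 0.402 CPM in SE and 0.794 ± 0.19 CPM in WT, 2.3-fold higher (edgeR adjusted p = 0.014). In SA against WT 3 rose and 1 fell, with a median of 0.23 against 0.001. Ccl2, Ccl5 and Ccl3 rose 1.88-fold, 1.47-fold and 1.46-fold (edgeR adjusted p = 0.0214, 0.042 and 0.00048), and Ccl6 was 1.41-fold lower (edgeR adjusted p = 0.0165). In SE against SA 2 rose, Ccl6 (1.5-fold, edgeR adjusted p = 0.00293) and Mif (1.48-fold, edgeR adjusted p = 0.0278), and 2 fell, Ccl5 (1.68-fold lower, edgeR adjusted p = 0.00402) and Ccl3 (1.33-fold lower, edgeR adjusted p = 0.00355). Cx3cl1, fractalkine itself, averaged 1.18 ± 0.0207 CPM in SE, 1.53 ± 0.0849 CPM in SA and 1.29 ± 0.44 CPM in WT, and passed in no comparison (edgeR adjusted p = 0.442 for SE vs SA, 0.835 for SE vs WT and 0.813 for SA vs WT).

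Of 12 other chemokine receptors looked at 3 were tested, Ccr10, Cxcr2 and Cxcr3, and the other 9 did not pass the filter on low counts. Against WT, edgeR called 0 of the 3 in either mutant; at an unadjusted p under 0.05 there were 0 in SE and 2 in SA, and DESeq2 called 0 in both. In SE against SA 1 fell, Cxcr3, a receptor for interferon-induced chemokines, at 0.529 ± 0.317 CPM in SE and 1.42 ± 0.0814 CPM in SA (2.6-fold, edgeR adjusted p = 0.0203). Of 15 atypical and related chemoattractant receptors 7 were tested. For both lists, the share of all tested genes called was 5.04% in SE against WT, 4.07% in SA against WT and 10.2% in SE against SA. S1pr1, a sphingosine 1-phosphate receptor that controls exit from tissue, was 1.5-fold lower in SE than in WT, at 23.5 ± 1.67 CPM in SE, 36.0 ± 0.488 CPM in SA and 35.3 ± 0.461 CPM in WT (edgeR adjusted p = 0.000121). The other 1 called in SE against WT was Ptafr, the receptor for platelet-activating factor, which was 1.15-fold lower (edgeR adjusted p = 0.0487). In SA against WT 1 of 7 rose, Ltb4r1, a leukotriene B4 receptor, 2.15-fold higher (edgeR adjusted p = 0.00318). S1pr1, Gpr183 and C5ar1 were lower in SE than in SA (adjusted p = 3.25e-05, 0.0315 and 0.00714 in edgeR). C3ar1, the C3a receptor, was the most abundant per length, at 1015 ± 41.7 TPM in SE, 1157 ± 36.9 TPM in SA and 1112 ± 57.1 TPM in WT, and was called in no comparison (edgeR adjusted p = 0.186 for SE vs SA, 0.429 for SE vs WT and 0.879 for SA vs WT).

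Downstream of the receptors, 21 G protein, receptor kinase, arrestin and RGS genes were tested. SE against WT gave 0 higher and 2 lower, beside 2.35% and 2.69% of all tested genes. SA against WT gave 2 higher and 1 lower, beside 1.97% and 2.1%. SE against SA gave 0 higher and 6 lower, beside 4.77% and 5.42%. The median log2 changes were -0.002, 0.03 and -0.04. The list was chosen with earlier results of these data known, so these shares describe it and test nothing. Grk3, a kinase that phosphorylates active receptors, fell in both mutants, to 21.3 ± 1.22 CPM in SE and 22.9 ± 1.23 CPM in SA, against 29.1 ± 1.60 CPM in WT (edgeR adjusted p = 0.00285 for SE and 0.0165 for SA). Gng2, a G protein gamma subunit, was 1.27-fold lower in SE than in WT (adjusted p = 0.0319 in edgeR). Rgs18 and Rgs14, regulators that shorten G protein signals, rose 1.48-fold and 1.27-fold in SA over WT (edgeR adjusted p = 0.0248 for both). The largest falls in SE against SA were in Rgs3, Rgs18 and Rgs2 (1.43-fold, 1.37-fold and 1.31-fold lower, edgeR adjusted p = 0.00772, 0.0423 and 0.0071).

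Of 24 tested PI3K, Rac and migration genes 1 fell in SE against WT, Plcb2, a phospholipase C activated by receptor G proteins (1.25-fold lower, edgeR adjusted p = 0.00557). In SA against WT edgeR called 0, with 7 at an unadjusted p under 0.05, and DESeq2 called 1. In SE against SA 6 fell and 0 rose, with a median of -0.10 against -0.003 over all tested genes. Of all tested genes 5.42% were called lower and 4.77% higher in that comparison. The share called in either direction was 5.04% in SE against WT and 4.07% in SA against WT. These shares describe the list and test nothing about it. The largest were Pik3r6 and Pik3cg, a regulatory and the catalytic subunit of PI3K gamma, and the actin regulator Coro1a (1.32-fold, 1.3-fold and 1.24-fold lower, edgeR adjusted p = 0.0118, 0.00284 and 0.0197).

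Markers of other cells were scarce. Summed over their lists, 7 neutrophil markers lay at 2.5 to 2.79 CPM in SE, 2.14 to 2.67 CPM in SA and 1.96 to 2.16 CPM in WT. Cxcr2 averaged 1.2 ± 0.068, 1.62 ± 0.265 and 0.884 ± 0.165 CPM in SE, SA and WT. S100a9, too low to test, had another order, at 0.719 ± 0.252, 0.198 ± 0.0963 and 0.374 ± 0.127 CPM. S100a8 stood at 0.513 ± 0.303, 0.561 ± 0.132 and 0.692 ± 0.207 CPM. Ly6g and Retnlg were at 0 in every library. The 6 T and NK cell markers lay at 3.93 to 4.41 CPM in SE, 5.35 to 5.73 CPM in SA and 5.31 to 6.22 CPM in WT, nearly all of it Cd4, with Cd3e and Ncr1 at 0 throughout. The 5 B cell markers lay at or below 1.21 CPM and the 6 mast cell and basophil markers at or below 0.605 CPM in every library. The 5 markers of resident large peritoneal macrophages summed to 7.64 to 8.14 CPM in SE, 6.83 to 7.61 CPM in SA and 5.91 to 6.31 CPM in WT, mostly Icam2, with Gata6 at 0 or 1 count per library. The 4 monocyte and small peritoneal macrophage markers summed to 90.6 to 103 CPM in SE, 91.1 to 106 CPM in SA and 82.4 to 83.8 CPM in WT. Nearly all of this sum was Irf4. Of the 6 markers in these lists that could be tested, edgeR called 0 in each comparison. At an unadjusted p under 0.05 there were 3 in SE against WT, 2 in SA against WT and 1 in SE against SA, and DESeq2 called 1, Irf4 in SA against WT. The part of such cells in the receptor values was not tested.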

How the data were processed

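The authors deposited raw read counts per Ensembl gene for 9 libraries. Per the submitters' processing notes, HISAT2 2.1.0, featureCounts and build mm10 were used; the annotation release, strand setting and treatment of multi-mapping reads are not stated there. Of 55401 gene IDs 55141 matched GENCODE M21, which gave symbols, positions and exon lengths. TPM was computed from counts and the summed exon length.

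All 9 libraries were fitted in R 4.3.3 with edgeR 4.0.16: filterByExpr on genotype (minimum count 10, minimum total 15; 13501 genes kept), TMM scaling, then glmQLFit (robust) on genotype alone with 6 residual degrees of freedom. Quasi-likelihood tests were 2-sided; p was adjusted by Benjamini-Hochberg over the 13501 genes, and calls required an adjusted p under 0.05. Standard errors and 95% intervals were derived from the F statistic. Likeness used log2 CPM (prior count 2). Alternatives were RLE factors, library totals alone, DESeq2 1.42.0, no filter, the replicate number in the fit, only the genotypes compared, each library left out, and WT2 with SE3 or WT1 with SE2 left out.

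The members and gene lists were chosen with earlier results of these data known. Named genes were the members, list genes called in a comparison (up to 3 of the largest change per list and comparison), the 3 most abundant ligands and other receptors, and the closest genes by pattern; C3ar1, Epx, Prg2, Flt3, Siglecf and other markers were named after their values were seen. Whether libraries are from separate mice is not labelled; the p-values then cover only the spread among these samples, which may be technical. Some genes are not reported here.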

Additional observations from a re-analysis of the deposited data

How the results depend on the processing

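The log2 changes of the 8 members kept direction and side of the threshold in 366 of 406 comparisons with an alternative; 19 lost a call, 15 gained one and 6 changed sign, all 6 in Ccr2 for SA vs WT. The cause was not tested. With library totals alone, Ccr2 in SA vs WT was 0.01, Ccr1 in SE vs SA 0.29 (call lost) and Cmklr1 in SE vs SA -0.28 (gained). With no filter, Ccr7 in SA vs WT (1.38), Ccr3 in SE vs WT (-0.59) and Cmklr1 in SE vs SA (-0.24) passed. With only the genotypes compared, Ccr7 in SA vs WT (1.38) and Cmklr1 in SE vs SA (-0.24) passed. Of the 15 gained calls, 4 were of Ccr7 in SA vs WT. Since Ccr7 passed the filter through SA alone, its values with SA, here and below, are a description. Ccr3 in SE vs WT passed with DESeq2 (-0.58) and with the replicate block (-0.58), which changed no other call of a member. Deviations from the genotype means correlated at r = -0.195 to 0.105 between same-numbered libraries and at -0.261 to 0.27 between differently numbered ones. Such values cannot show whether same-numbered libraries were prepared together, and the labels do not say.

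Without WT2 and SE3 together, Ccr7 in SA vs WT (1.49), Ccr3 in SE vs WT (-0.60) and Cmklr1 in SE vs SA (-0.30) passed. Without WT1 and SE2 together, Cmklr1 in SE vs WT (0.34) and Ccr1 in SE vs SA (0.31) lost their calls, and Ccr2 in SA vs WT was 0.11. Leaving out 1 library at a time gave, in SA vs WT, -0.14 to 0.11 for Ccr2, 1.13 to 1.58 for Ccr7 and -0.29 to -0.19 for Cxcr4. In SE vs WT it gave -0.73 to -0.48 for Ccr2, -0.75 to -0.43 for Ccr3 and -0.36 to -0.28 for Cxcr4. In SE vs SA it gave 0.28 to 0.40 for Ccr1 and -0.30 to -0.15 for Cmklr1.

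Over all genes the calls were 549 in SA vs WT (297 to 652 leaving out 1 library, 297 without WT3 and 308 without SA1, and 903 without WT2 and SE3), 680 in SE vs WT (292 to 1097, with 1097 without WT2, 292 without WT3 and 332 without SE1; 438 with only the genotypes compared, 1215 without WT2 and SE3, 372 without WT1 and SE2) and 1376 in SE vs SA (781 to 1762, with 781 to 908 without any 1 SA library and 811 without SE1). Depth limits Ccr7, at 1 to 27 counts per library, most. For Ccr7 in SE vs WT, DESeq2 gave no adjusted p, and with only the genotypes compared the gene did not pass the filter.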
